A study of Mus musculus with 12 samples.

Results

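Elmo1, Elmo2, Dock1, Rac1, Eps8, Arap2, Cobll1 and Marcks encode regulators of Rac and Arf signalling, of actin and of cell migration. Rows were found by gene symbol, and all 8 genes were listed in each of the 5 tables of the authors' comparisons, out of 16399 genes listed in any of them. The genes were chosen with results of these data known, and Elmo1, Eps8, Arap2 and Cobll1 were selected on their large differences between aPD-1 and the groups on either side of it. Values of aPD-1 against IgG and of aPD-1+CD8 against aPD-1 are therefore a description for these genes, and nothing is read from how many of them passed a threshold there.

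Rac is a small GTPase that drives the actin-rich protrusions of moving and engulfing cells, and it is switched on by exchange factors. ELMO proteins bind exchange factors of the DOCK family and help them load Rac with GTP, and EPS8 does so in a complex with ABI1 and SOS1. EPS8 also caps growing actin filaments. Arf6, a GTPase of membrane traffic at the cell surface, is switched off by Arf GTPase-activating proteins such as ARAP2, which acts on focal adhesions. COBLL1 is a relative of the actin nucleator cordon-bleu, and MARCKS links actin to the membrane and holds the lipid PIP2 until protein kinase C or calmodulin releases it.

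The material was MC38 tumours, a mouse colon carcinoma model, in the albino C57BL/6 strain. Tumours were dissociated, and pieces of 40 to 100 µm were kept in collagen at 2.8 mg/mL in a chip for 3-dimensional culture, in 300 µL of medium per well, for 6 days. There were 12 samples in 4 groups of 3. IFNg wells received interferon-gamma at 100 ng/mL, aPD-1+CD8 wells a PD-1 antibody and a CD8 antibody at 10 µg/mL each, aPD-1 wells the PD-1 antibody at 10 µg/mL, and IgG wells a control antibody at 10 µg/mL. For the IFNg wells the labels give no antibody, and for aPD-1 alone no added control antibody. Whether CD8 T cells were lost under the CD8 antibody is not stated, nor whether replicate samples are separate animals or cultures, so p-values measure a spread that may be technical.

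Each table gave 1 value per gene for a pair of groups, and none gave single samples, so no SD over samples is available. Summed over genes, the mean normalized counts came to 10292941 to 11590748 per table, of which the ribosomal RNA precursor gene Rn45s took 27.8% to 29.6%. Group levels, in mean normalized counts, were solved from the deposited means of the pairs after the tables had been brought to 1 scale, and carry no error of their own. The level of IgG came out of 2 sets of tables, with a median gap of 0.0477% over 5706 genes, and the aPD-1 level with a gap of 0.0473%. Both sets share the aPD-1 v IgG table and its libraries, and both were scaled to deposited fold changes. Small gaps are therefore largely built in and do not measure how accurate the levels are. Among the chosen genes the largest gap was 1.84%, for an aPD-1 level. Without scaling, the Elmo1 level in aPD-1 was 19.97 in place of 14.32. Levels are not per length, so they are compared between groups for 1 gene and not between genes.

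Marker genes were read in the same way. Of the T, NK and B cell markers 8 of 10 were listed and 0 reached a mean of 10. The 3 that stood in all tables had summed levels of 9.40 in IFNg, 13.0 in aPD-1+CD8, 6.36 in aPD-1 and 14.0 in IgG. Most of each sum was Ptprc, a marker of white blood cells in general, at 7.57, 11.4, 4.54 and 11.9 in that order. Ptprc had no adjusted p under 0.05 in any comparison by the authors' DESeq2 test. Of the macrophage markers 6 of 12 reached that mean, and the 12 summed to 533 in IFNg, 215 in aPD-1+CD8, 212 in aPD-1 and 236 in IgG. The higher IFNg sum came from Csf1r, with a level of 366 in IFNg, 28.0 in aPD-1+CD8, 20.2 in aPD-1 and 27.2 in IgG, and with no p-value in the authors' deposited tables that include IFNg, which is how DESeq2 marks an outlying count. Without Csf1r the list summed to 167 in IFNg, 187 in aPD-1+CD8, 192 in aPD-1 and 209 in IgG. Of the epithelial markers 6 of 9 were listed and 0 reached a mean of 10, the highest being Krt19 with a mean of 3.68, so the carcinoma's keratin markers were nearly absent. The fibroblast list, led by Dcn, Col3a1 and Col1a1, summed to 2922 in IFNg, 2824 in aPD-1+CD8, 9686 in aPD-1 and 3136 in IgG. The endothelial list summed to 60.4 in IFNg, 40.6 in aPD-1+CD8, 100 in aPD-1 and 36.2 in IgG. Only 1 of its 7 listed markers reached a mean of 10, Cdh5 with 58.7, and the next highest was Egfl7 with 6.07. The endothelial sums are thus mostly those of 1 gene. In bulk samples, fewer cells of a type and less RNA per cell cannot be told apart.

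Promoter sequences are shown for Elmo1, Arap2 and Cobll1 because these are 3 of the 4 genes whose level in aPD-1 was far below that in the other 3 groups. RefSeq promoters of GRCm38.p6, which is another build than that of the deposited tables, were at hand for 5 of the 8 genes in a table of 32851 promoters. Eps8, Marcks and Rac1 had no entry. Each sequence runs 5′ to 3′ over the 250 bases before a start. Capitals mark matches, on either strand, to an AP-1 site (TGANTCA), a STAT site (TTCNNNGAA), the core of an interferon-stimulated response element (GAAANNGAA) or a Snail-type E-box (CAGGTG). Elmo1 has 2 starts in the table, at chr13:20090257-20090506 and at chr13:20472740-20472989 on the plus strand, Arap2 has 1 at chr5:62766178-62766427 on the minus strand, and Cobll1 has 1 at chr2:65238792-65239041 on the minus strand.
Elmo1, first start: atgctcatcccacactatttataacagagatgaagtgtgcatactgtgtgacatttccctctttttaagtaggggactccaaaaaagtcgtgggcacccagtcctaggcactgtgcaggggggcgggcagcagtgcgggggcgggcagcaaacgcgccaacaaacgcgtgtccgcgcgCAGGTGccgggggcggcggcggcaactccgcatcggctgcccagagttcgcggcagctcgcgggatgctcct
Elmo1, second start: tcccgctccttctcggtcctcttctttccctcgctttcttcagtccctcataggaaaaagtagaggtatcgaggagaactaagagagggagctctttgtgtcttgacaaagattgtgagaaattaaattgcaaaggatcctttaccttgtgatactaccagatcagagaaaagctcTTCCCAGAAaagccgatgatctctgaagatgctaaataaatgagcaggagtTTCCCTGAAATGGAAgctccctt
Arap2: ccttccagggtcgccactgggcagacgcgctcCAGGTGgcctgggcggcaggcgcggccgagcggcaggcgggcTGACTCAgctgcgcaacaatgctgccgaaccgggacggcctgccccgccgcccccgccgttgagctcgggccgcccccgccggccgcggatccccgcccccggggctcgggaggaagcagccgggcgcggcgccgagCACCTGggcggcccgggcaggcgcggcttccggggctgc
Cobll1: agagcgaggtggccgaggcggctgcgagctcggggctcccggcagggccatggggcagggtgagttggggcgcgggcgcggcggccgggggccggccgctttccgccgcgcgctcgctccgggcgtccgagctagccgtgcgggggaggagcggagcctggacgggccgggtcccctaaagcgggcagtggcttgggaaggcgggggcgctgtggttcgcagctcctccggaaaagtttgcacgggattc

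The 2 Elmo1 sequences differ in composition, with 61.6% G and C before the first start and 43.6% before the second. Before the first start, an E-box lies 72 to 67 bases upstream. Before the second lie 2 STAT sites, 74 to 66 and 23 to 15 bases upstream, and the second of these overlaps the interferon-type match 17 to 9 bases upstream. Arap2, with 80.8% G and C, has E-boxes 218 to 213 and 39 to 34 bases upstream and an AP-1 site 176 to 170 bases upstream. Cobll1, with 75.6% G and C, holds none of the 7 motifs searched. The AP-1 letters stand in 6.75% of all promoters of this length, the STAT letters in 7.02%, the interferon-type core in 7.13% and the E-box in 17.2%. The other motifs searched were the TGACG letters of the cAMP response element (17.8% of all promoters), a MYC-type E-box (CACGTG, 6.02%) and a TEAD site (GGAATG, 12.6%), and none of the 8 promoters of the 5 genes held them. A match is a description of letters and not a site in use, the motifs were chosen after the data had been seen, and which start the cells used is not known from values per gene.

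Elmo1, the ELMO scaffold with the largest difference, had a level of 97.6 in IFNg, 174 in aPD-1+CD8, 14.3 in aPD-1 and 166 in IgG. The aPD-1 level was 8.65% of the IgG level, and aPD-1+CD8 stood at 105% of it. The IFNg level lay between those of aPD-1 and IgG, at 58.9% of IgG. In the authors' deposited table the log2 fold change of aPD-1 over IgG was -2.98 ± 0.29 (SE), the 3rd largest decrease by size of 5879 genes with a lower value. The log2 ratio of the scaled levels was -3.53, an 11.6-fold difference where the deposited value gives 7.87-fold. Unscaled levels were 19.97 in aPD-1 and 160 in IgG, and their log2 ratio lay within 1 standard error of the deposited value. The larger size of the scaled ratio thus depended on the scaling, which was chosen after the data had been seen. Of aPD-1+CD8 over aPD-1, the authors' deposited table has 2.97 ± 0.31, beside a log2 ratio of levels of 3.60. That is a 12.2-fold difference in levels and a 7.84-fold difference as deposited. The log2 ratio of unscaled levels was 2.86 for this pair.

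Elmo2, the relative of Elmo1 that also binds DOCK proteins, had a level of 796 in IFNg, 688 in aPD-1+CD8, 769 in aPD-1 and 678 in IgG. Dock1, the exchange factor that ELMO proteins help, had 520 in IFNg, 565 in aPD-1+CD8, 727 in aPD-1 and 619 in IgG. Rac1 itself had 5173 in IFNg, 5965 in aPD-1+CD8, 6058 in aPD-1 and 5732 in IgG. The 4 levels of each of these genes lay close together, between 83.9% and 117% of IgG. Elmo2 and Dock1 in aPD-1 were at 113% and 117% of IgG, on the other side of IgG from Elmo1. For aPD-1 over IgG the authors' deposited table gives a log2 fold change of 0.17 ± 0.15 for Elmo2, 0.21 ± 0.16 for Dock1 and 0.07 ± 0.13 for Rac1. The 95% interval of the Rac1 value ran between -0.18 and 0.33. Of aPD-1+CD8 over aPD-1 the authors' deposited table gives -0.16 ± 0.17 for Elmo2, -0.35 ± 0.17 for Dock1 and -0.02 ± 0.17 for Rac1. None of Elmo2, Dock1 and Rac1 had an adjusted p under 0.05 in any of the 5 comparisons by the authors' DESeq2 test, so the order of their groups was not resolved, and no table compared IFNg with aPD-1+CD8.

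**Figure D1:**
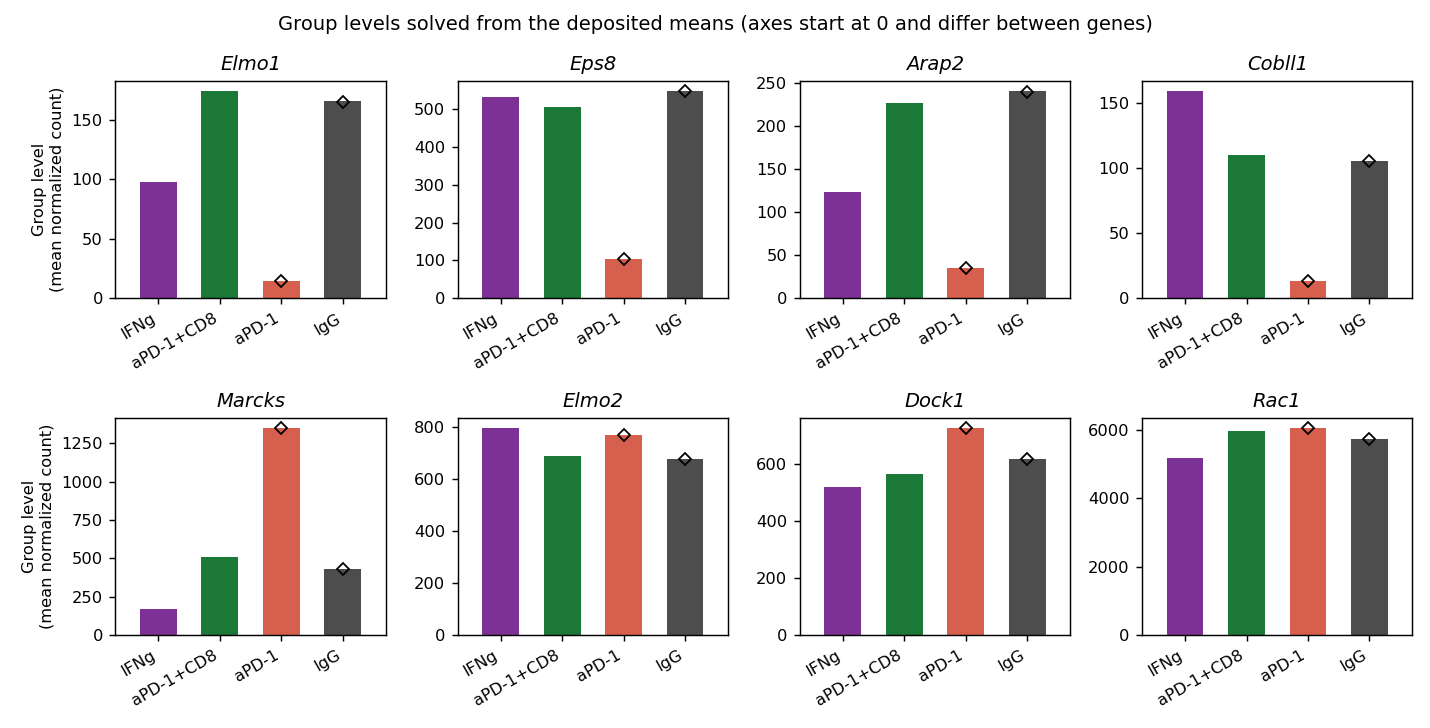
Group levels of the 8 genes in mean normalized counts (vertical axes, each from 0) in IFNg, aPD-1+CD8, aPD-1 and IgG. Bars are solved levels, and open diamonds are the aPD-1 and IgG levels from the other set of tables, which rest on the same libraries. The aPD-1 bar is far below the other 3 for Elmo1, Eps8, Arap2 and Cobll1, far above them for Marcks, and close to them for Elmo2, Dock1 and Rac1; there are no error bars because the tables hold no single samples.

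Eps8, the actin-capping partner of ABI1 and SOS1, had a level of 534 in IFNg, 505 in aPD-1+CD8, 103 in aPD-1 and 548 in IgG. The aPD-1 level was 18.8% of IgG, and the other 2 groups stood at 97.5% of IgG in IFNg and 92.3% in aPD-1+CD8. The authors' deposited table gives a log2 fold change of -2.30 ± 0.19 for aPD-1 over IgG, the 17th largest decrease. For aPD-1+CD8 over aPD-1 it is 2.17 ± 0.20 in the authors' deposited table. The order of the 3 higher groups was not resolved, since IFNg and aPD-1+CD8 each differed from IgG by less than the standard error.

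Arap2, the Arf6 GTPase-activating protein, had a level of 124 in IFNg, 227 in aPD-1+CD8, 34.5 in aPD-1 and 241 in IgG. The aPD-1 level was 14.3% of IgG and the IFNg level 51.6%, so that IFNg lay between them. The log2 fold change of aPD-1 over IgG was -2.54 ± 0.23 in the authors' deposited table, the 8th largest decrease, and that of aPD-1+CD8 over aPD-1 was 2.36 ± 0.28. The log2 ratios of the levels were -2.80 for the first pair and 2.72 for the second, and -2.47 and 2.14 with unscaled levels.

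Cobll1, the cordon-bleu relative, had a level of 159 in IFNg, 110 in aPD-1+CD8, 13.4 in aPD-1 and 106 in IgG. The aPD-1 level was 12.7% of IgG. IFNg had the highest level, at 150% of IgG, a difference whose adjusted p was 0.5 in the authors' DESeq2 test. The log2 fold change of aPD-1 over IgG was -2.52 ± 0.30 in the authors' deposited table, the 10th largest decrease, and that of aPD-1+CD8 over aPD-1 was 2.54 ± 0.32. Its log2 ratios of levels were larger, -2.97 and 3.03, but -2.61 and 2.43 with unscaled levels.

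Marcks had its highest level in aPD-1, where the 4 genes above had their lowest, with a level of 171 in IFNg, 509 in aPD-1+CD8, 1348 in aPD-1 and 428 in IgG. The aPD-1 level was 315% of IgG, aPD-1+CD8 stood at 119% and IFNg at 40.0%. For aPD-1 over IgG the authors' deposited table gives a log2 fold change of 1.58 ± 0.16, the 142nd largest increase of 6145 genes with a higher value. For aPD-1+CD8 over aPD-1 the authors' deposited table gives -1.33 ± 0.19. The 2 outermost groups were aPD-1 and IFNg, with a log2 ratio of levels of -2.98 for IFNg over aPD-1.

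Deposited fold changes were mostly smaller than the ratios of scaled levels, in the way of values drawn toward 0. Over genes with a mean of at least 100 and a ratio of at least 0.2 on the log2 scale, the median deposited value was 95.6% of the ratio in aPD-1 v IgG, 94.7% in aPD-1+CD8 v aPD-1, 89.5% in IFNg v IgG and 96.1% in IFNg v aPD-1. In aPD-1+CD8 v IgG it was 52.0%. Sizes in that comparison are therefore not on the scale of the others.

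**Figure D2:**
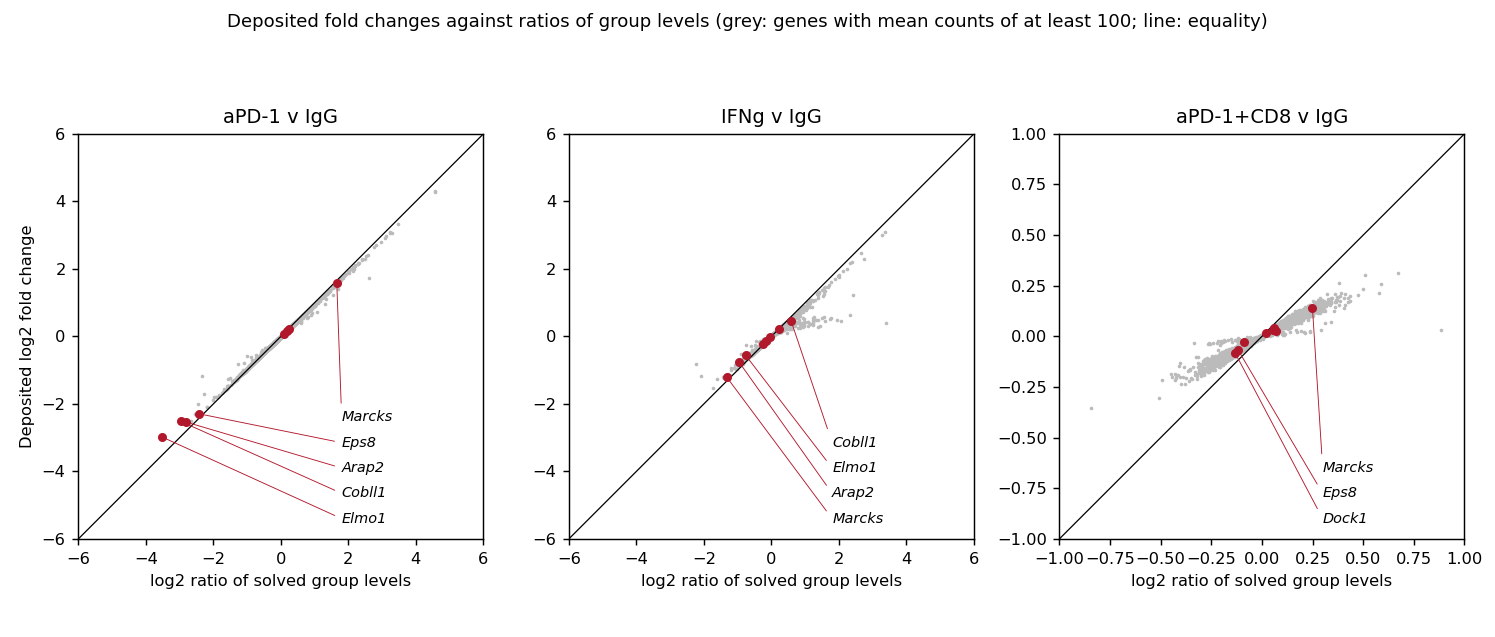
Deposited log2 fold change (vertical axis) against the log2 ratio of solved group levels (horizontal axis) in aPD-1 v IgG, IFNg v IgG and aPD-1+CD8 v IgG, for genes with mean counts of at least 100 (grey) and the 8 genes (red, the farthest from 0 named), with a line of equality. Elmo1 and Cobll1 lie nearer to 0 than the line, at -2.98 deposited against -3.53 for Elmo1 in aPD-1 v IgG, and Rac1 lies near the origin.

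The comparison of PD-1 antibody with control antibody asked what changes in the cultures under PD-1 blockade. Of the 8 genes, 5 had an adjusted p under 0.05 in the authors' DESeq2 test, 1 higher (Marcks) and 4 lower (Elmo1, Eps8, Arap2 and Cobll1). Over all 12024 genes tested, 18.5% were below that value, 8.50% higher and 10.0% lower. The choice of the genes used this comparison, so their count is not read against these shares. The same holds for the median log2 fold change, which was -1.11 over the 8 genes and 0.01 over all genes tested. The fibroblast markers moved in the same comparison, with 4 of 7 tested higher and 0 lower. Of the other lists, 1 of 10 macrophage and 1 of 2 endothelial markers tested were higher and 1 of 3 epithelial markers was lower. Their part in the values of the 8 genes was not tested.

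Adding the CD8 antibody to the PD-1 antibody gave values near the reverse of these, with Elmo1, Eps8, Arap2 and Cobll1 higher and Marcks lower in aPD-1+CD8 than in aPD-1. The 2 comparisons share the aPD-1 libraries, so the reversal is not a separate result. The count was 4 higher and 1 lower of 8, where 14.8% of 11560 genes had an adjusted p under 0.05, 7.82% higher and 6.94% lower. This contrast too was used in choosing the genes. Here 3 of 7 tested fibroblast markers were lower and 0 higher, and their part in these values was not tested.

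aPD-1+CD8 against IgG, which shares libraries with both comparisons above, had none of the 8 genes past the threshold. The count was 0 of 8, and over all 15304 genes tested it was 0, or 0%, by the authors' DESeq2 test at an adjusted p of 0.05, with 57 genes and 0 of the 8 at an unadjusted p under 0.05. The largest size was that of Marcks, 0.14 ± 0.11 in the authors' deposited table, with a log2 ratio of levels of 0.25. Elmo1 had 0.03 ± 0.10, Eps8 -0.07 ± 0.11, Arap2 -0.03 ± 0.11 and Cobll1 0.03 ± 0.11 in the authors' deposited table, each with an adjusted p of 1. Dock1 had -0.08 ± 0.11, Elmo2 0.02 ± 0.10 and Rac1 0.04 ± 0.10 in the authors' deposited table, also with an adjusted p of 1. These values do not show that the groups were alike, since they are drawn strongly toward 0.

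In the comparison of interferon-gamma with control antibody, 2 of the 8 genes fell and none rose. Marcks fell, with a log2 fold change of -1.21 ± 0.16 (adjusted p 1.1e-11) in the authors' deposited table, the 15th largest decrease of 5559 genes with a lower value. Arap2 also fell, by 0.77 ± 0.22 on the log2 scale (adjusted p 0.012) in the authors' deposited table, and by 0.95 in the ratio of levels. Elmo1 had -0.56 ± 0.24 (adjusted p 0.25) in the authors' deposited table, and was the gene nearest to the threshold among those that missed it. Cobll1 had 0.44 ± 0.25 (adjusted p 0.5) and Eps8 -0.03 ± 0.16 (adjusted p 0.99) in the authors' deposited table. Elmo2, Dock1 and Rac1 had 0.22 ± 0.15, -0.22 ± 0.17 and -0.14 ± 0.13 in the authors' deposited table, with adjusted p of 0.65, 0.74 and 0.84. Thus 2 of the 8 passed, 0 higher and 2 lower, where 4.10% of 11478 genes passed, 2.73% higher and 1.38% lower. The IgG libraries are also those of the comparison the genes were selected on, so this count is not independent of the choice. In the same comparison the fibroblast list had 1 higher and 3 lower of 7 tested, and the macrophage list 0 higher and 1 lower of 9 tested, with a median log2 fold change of -0.14. The part of these lists in the fall of Marcks and Arap2 was not tested.

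In IFNg against aPD-1 the 4 genes that were low in aPD-1 were higher, and Marcks was lower by more than in any other comparison. Cobll1 had a log2 fold change of 3.03 ± 0.36, Elmo1 2.37 ± 0.34, Eps8 2.27 ± 0.22 and Arap2 1.66 ± 0.30 in the authors' deposited table. Marcks had -2.88 ± 0.19 in the authors' deposited table. Dock1 had -0.47 ± 0.19, Rac1 -0.23 ± 0.17 and Elmo2 0.04 ± 0.17 in the authors' deposited table. The count was 4 higher and 1 lower of 8, where 15.5% of 12260 genes had an adjusted p under 0.05, 8.39% higher and 7.13% lower. The aPD-1 libraries are again those that the choice used, and 5 of 7 tested fibroblast markers were lower here.

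**Figure D3:**
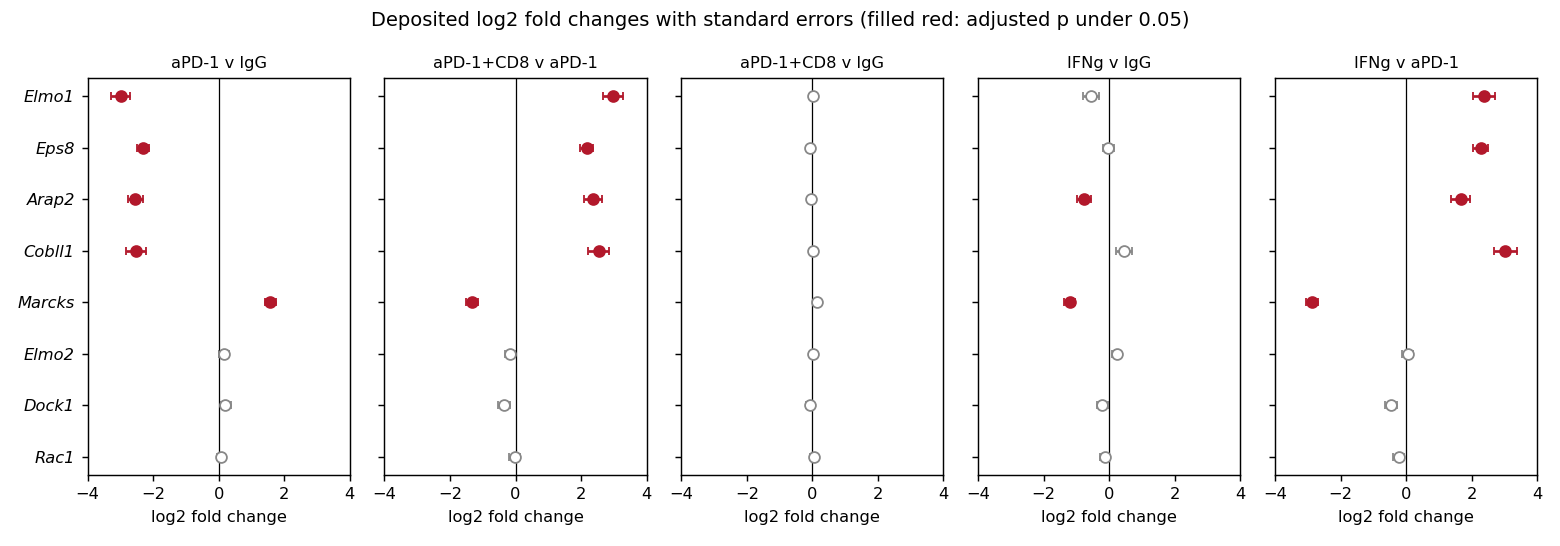
Deposited log2 fold changes with standard errors (horizontal axes) of the 8 genes (rows) in the 5 comparisons (panels), with filled points for an adjusted p under 0.05. Elmo1, Eps8, Arap2 and Cobll1 lie at -2.98 to -2.30 in aPD-1 v IgG and at 2.17 to 2.97 in aPD-1+CD8 v aPD-1, all 8 genes lie within 0.14 of 0 in aPD-1+CD8 v IgG, and Arap2 and Marcks are the filled points in IFNg v IgG.

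Close relatives of the 8 genes, picked for their kinship and not by the rule for named genes, mostly missed the threshold. Elmo3, the other ELMO gene, had a level of 24.1 in IFNg, 26.3 in aPD-1+CD8, 13.9 in aPD-1 and 26.4 in IgG, and a log2 fold change of -0.70 ± 0.35 for aPD-1 over IgG (adjusted p 0.17) in the authors' deposited table. Arap1 and Arap3 had -0.16 ± 0.18 and -0.30 ± 0.15 (adjusted p 0.62 and 0.16) in the same deposited table of the authors. Marcksl1, the Marcks relative, had 0.46 ± 0.18 for aPD-1 over IgG (adjusted p 0.051) in the authors' deposited table, but rose in IFNg over IgG by 0.56 ± 0.17 (adjusted p 0.023), where Marcks fell. Eps8l2 had -0.58 ± 0.32 for aPD-1 over IgG (adjusted p 0.22) and 1.46 ± 0.40 for IFNg over aPD-1 (adjusted p 0.0029) in the authors' deposited tables. Dock2, Dock5, Eps8l1, Rac2 and Rac3 passed in none of the 5 comparisons by the authors' DESeq2 test. In aPD-1 v IgG the means were 21.0 for Dock2, 17.1 for Rac2, 7.23 for Rac3 and 6.58 for Eps8l1. At such low counts a miss does not show that a gene was unchanged. The means of Eps8l3 and Cobl were below 1.

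The rest of the pathway was read from 13 lists of Rac, Arf and actin genes, of whose 178 entries 177 were in the tables and the 8 genes were no part. In aPD-1 v IgG, 32 of 157 tested passed, 15 higher and 17 lower, which is 20.4% beside 18.5% of all genes. In aPD-1+CD8 v aPD-1, 24 of 153 passed, 13 higher and 11 lower, or 15.7% beside 14.8%. In aPD-1+CD8 v IgG the count was 0 of 176, with 0 at an unadjusted p under 0.05. In IFNg v IgG, 11 of 153 passed, 3 higher and 8 lower, or 7.19% beside 4.10%. In IFNg v aPD-1, 32 of 158 passed, 14 higher and 18 lower, or 20.3% beside 15.5%. In aPD-1 v IgG the pathway's share was thus near that of all genes, and its median log2 fold change was 0.01, like that of all genes tested.

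Around ELMO, 3 of 11 ELMO and DOCK genes passed in aPD-1 v IgG. Among them Dock4, a Rac exchange factor, rose by 0.64 ± 0.16, and Dock9, which acts on Cdc42, fell by 0.86 ± 0.17 in the authors' deposited table. Among the inputs to ELMO and DOCK, the engulfment receptors Axl and Mertk fell by 1.24 ± 0.12 and 0.90 ± 0.22, and the GTPase Rhog, which binds ELMO, rose by 0.56 ± 0.20 in the authors' deposited table. Mertk also fell in IFNg v IgG, by 0.86 ± 0.19 (adjusted p 3.4e-04) in the authors' deposited table. Among the other Rac exchange factors, 1 rose (Kalrn, 0.76 ± 0.22) and 1 fell (Sos1, by 0.41 ± 0.13) of 14 tested in aPD-1 v IgG in the authors' deposited table. Sos1 and Baiap2 are partners of Eps8, and Baiap2, a membrane-bending adaptor, fell by 0.62 ± 0.16 in the authors' deposited table.

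Downstream of Rac, 2 of 16 WAVE and Arp2/3 genes passed in aPD-1 v IgG, both lower. Cyfip2, a subunit of the WAVE complex that Rac binds, fell by 1.81 ± 0.23 (adjusted p 9.8e-14) in the authors' deposited table, with a level of 41.2 in aPD-1 and 162 in IgG. Arpc5l, of the Arp2/3 complex, fell by 0.83 ± 0.17 there and by 0.56 ± 0.16 in IFNg v IgG in the authors' deposited tables. Of 13 GTPases tested, Rhob, Rhoq and Cdc42 rose by 0.64 ± 0.15, 0.60 ± 0.14 and 0.41 ± 0.13, and Rnd1 fell by 0.73 ± 0.26 in aPD-1 v IgG, per the authors' deposited table. Rhoq fell in IFNg v IgG by 0.53 ± 0.15 in the authors' deposited table. In the list of effectors and kinases, with 12 tested, Git1, Limk2 and Iqgap1 fell in aPD-1 v IgG. Their log2 fold changes were -0.64 ± 0.13, -0.68 ± 0.19 and -0.47 ± 0.15, and Iqgap1 fell by 0.53 ± 0.15 in IFNg v IgG, in the authors' deposited tables. Rac GTPase-activating proteins and their kin gave 4 lower and 1 higher of 13 tested in aPD-1 v IgG. Srgap3, Arhgap22 and Chn1, which switch Rac off, fell, with log2 fold changes of -1.33 ± 0.19, -1.28 ± 0.16 and -1.20 ± 0.18, and Arhgap31, which acts on Rac and Cdc42, rose by 0.86 ± 0.19 in the authors' deposited table. Chn1 also fell in IFNg v IgG, by 0.78 ± 0.21 in the authors' deposited table.

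On the Arf side, the exchange factors Psd3 and Cyth1, which activate Arf6, rose in aPD-1 v IgG by 1.85 ± 0.18 and 1.84 ± 0.17 (adjusted p 2.9e-22 and 6.3e-25) in the authors' deposited table. They were the 2 of 14 Arf exchange factors that passed, and 0 were lower. Cyth1 had a level of 113 in IFNg, 124 in aPD-1+CD8, 495 in aPD-1 and 129 in IgG, and Psd3 had 46.8 in IFNg, 83.7 in aPD-1+CD8, 359 in aPD-1 and 91.9 in IgG. Thus aPD-1 was the high group for both, where it was the low group for Arap2. Psd3 fell in IFNg v IgG by 0.79 ± 0.23 in the authors' deposited table. Of 9 Arf GTPases, Arl4c and Arf5 rose by 1.18 ± 0.19 and 0.52 ± 0.16 and Arf6 fell by 0.49 ± 0.13 in aPD-1 v IgG, per the authors' deposited table. Of 18 Arf GTPase-activating proteins in the list, Agap1 fell by 0.93 ± 0.13 and Arfgap3 rose by 0.61 ± 0.21 in that comparison in the authors' deposited table. Git1, also of this class, fell there too but was counted in the list of effectors and kinases. Asap3, of the same class, rose in IFNg v IgG by 1.10 ± 0.22 in the authors' deposited table, and missed the threshold for aPD-1 over IgG.

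Among relatives of cordon-bleu, 0 of 9 WH2-domain and related actin nucleators passed in aPD-1 v IgG, and Spire2 rose by 0.84 ± 0.21 in IFNg v IgG in the authors' deposited table. Among genes related to MARCKS, Gap43, which also binds calmodulin, rose by 1.85 ± 0.41 in aPD-1 v IgG in the authors' deposited table. The Gap43 level was 21.3 in aPD-1 and 2.14 in IgG, so it rests on few counts. In IFNg v IgG, Add1, an actin-binding adducin, fell by 0.52 ± 0.12 and Calm2, a calmodulin gene, by 0.48 ± 0.14 in the authors' deposited table. The 2 sets of libraries share the IgG group.

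**Figure D4:**
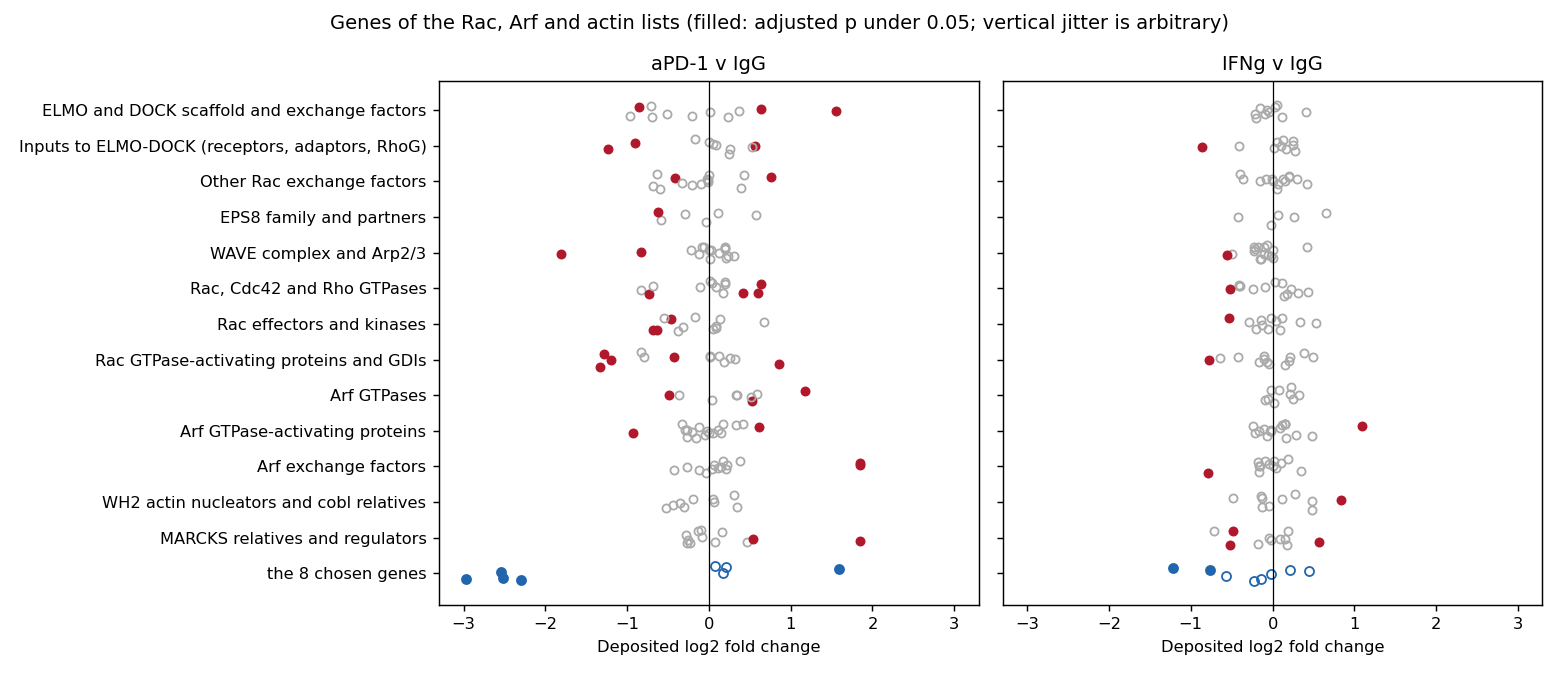
Deposited log2 fold changes (horizontal axes) of genes in 13 lists and of the 8 chosen genes (rows) in aPD-1 v IgG (left) and IFNg v IgG (right), with filled points for an adjusted p under 0.05. In aPD-1 v IgG, Elmo1, Arap2, Cobll1 and Eps8 (-2.98 to -2.30) lie beyond the lowest list gene, Cyfip2 at -1.81. They were selected on their large values in this comparison, so their place beyond the lists follows from the choice. The highest list genes there are Gap43 and Psd3 at 1.85.

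Genes with the most similar pattern were sought among 7099 genes by the Euclidean distance between their 5 deposited log2 fold changes, where comparisons share libraries, so that this is a description. Gatm, which makes the creatine precursor, was nearest to Elmo1 (distance 0.95), Eps8 (0.29) and Cobll1 (0.96). Its log2 fold changes in the authors' deposited tables were -2.52 in aPD-1 v IgG, 2.26 in aPD-1+CD8 v aPD-1 and -0.16 in IFNg v IgG. Fam171b was nearest to Arap2 (0.51), and Nrp1, a neuropilin receptor, to Marcks (0.44). Arap2 was the 2nd and Eps8 the 4th nearest gene to Elmo1, at 1.06 and 1.19, where Elmo2 was at 5.07 and Dock1 at 5.42. Elmo1, Eps8, Arap2 and Cobll1 were selected on values that enter this distance. Their nearness to each other, and their distance from Elmo2 and Dock1, therefore follow from the choice. Other near genes were Fam171b and Exoc6 for Elmo1; Plk2, Exoc6, Chrnb1 and Trim66 for Eps8; Ptchd1, Exoc6, Chrnb1 and Met for Arap2; Eps8, Plk2 and Soat2 for Cobll1; and Fbln2, Vegfa, Bhlhe40 and Ddit4 for Marcks.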

How the data were processed

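RNA from 12 samples in 4 groups of 3 was measured by exome-capture RNA sequencing from 250 ng of total RNA, per the labels' protocols. Groups were taken from the treatments in the labels. The authors deposited 5 tables, made with DESeq2 on mm9, per the submitters' processing notes. The aligner, counter, annotation, strand use and tool versions were not given in the sources used here. Columns, per the file headers, are the mean normalized count (a signal averaged over both groups), the log2 fold change and its SE, the Wald score, the p-value and the adjusted p-value. The tables hold 0 columns of single samples, so depth per library is unknown and standard errors are the only measure of precision. Paralogs may share reads if counting split them.

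A gene was called when the authors' adjusted p was under 0.05. Genes without an adjusted p were not counted. Group levels were to be solved from the deposited means as they stood, if the tables were on nearly 1 scale. They were not, with factors up to 1.14 against aPD-1 v IgG, so 2 factors per loop of 3 tables were fitted such that median ratios of levels matched median deposited fold changes. This was chosen after the data had been seen. The 8 genes, the gene lists and markers were chosen with earlier results of these data known. Named genes were the 8 genes, up to 4 genes of each list with the smallest adjusted p in aPD-1 v IgG and up to 2 in IFNg v IgG, and for likeness the 5 nearest genes with a mean of at least 50 in each table; relatives, Marcksl1 among them, were named for kinship. Some genes that the rule names are not reported here. Alternatives were an adjusted p of 0.01, a log2 fold change of at least 1, an empirical null (robust SD of the Wald scores), centring, unscaled levels and ratios of levels. The code was tested on simulated data. Python 3.11.15, numpy 2.4.6, pandas 2.3.3, scipy 1.17.1 and matplotlib 3.10.9 were used.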

Additional observations from a re-analysis of the deposited data

How the results depend on the processing

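All 40 deposited log2 fold changes of the 8 genes, in 5 comparisons, kept their sign as ratios of scaled levels and after centring on the median gene. As ratios of unscaled levels 6 of 40 changed sign, none of them a called value: in aPD-1+CD8 v IgG Elmo1 (-0.15), Elmo2 (-0.41), Cobll1 (-0.17), Marcks (-0.53) and Rac1 (-0.36), and in IFNg v aPD-1 Elmo2 (-0.04). By more than 1 standard error, 8 of 40 moved as ratios of scaled levels, 22 as ratios of unscaled levels and 0 after centring. The ratio of scaled levels of Elmo1 was the larger by about 1.5 times in fold. It was 11.6-fold against 7.87-fold deposited for aPD-1 v IgG and 12.2-fold against 7.84-fold for aPD-1+CD8 v aPD-1. With unscaled levels, the Elmo1 ratios of both pairs lay within 1 standard error of the deposited values. Ratios of unscaled levels carry the differences in scale between the tables.

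Requiring a log2 fold change of at least 1 left 707 of 2229 genes in aPD-1 v IgG, 656 of 1706 in aPD-1+CD8 v aPD-1, 190 of 471 in IFNg v IgG and 860 of 1903 in IFNg v aPD-1. With the empirical null the counts were 1163 in aPD-1 v IgG, 963 in aPD-1+CD8 v aPD-1 and 1070 in IFNg v aPD-1, by division of the Wald scores by a robust SD of 1.31, 1.23 and 1.25. At an adjusted p of 0.01, 1099 genes were left in aPD-1+CD8 v aPD-1. Of the 2 chosen genes that passed in IFNg v IgG, 1 was left at an adjusted p of 0.01 and 1 with a log2 fold change of at least 1, and in both cases the one lost was Arap2. The counts of chosen genes in the other comparisons were the same under these settings and under the filters on low means.

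No paired analysis was possible because the tables hold no single samples. Leaving out each replicate in turn was not run for the same reason. Depth per library, outlying samples and the spread between samples could not be examined.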

Other observations

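Nckap1l, a WAVE complex subunit known from blood cells, had a level of 868 in IFNg, 1046 in aPD-1+CD8, 1180 in aPD-1 and 1019 in IgG. Ptprc, the general marker of white blood cells, had a level of 7.57 in IFNg, 11.4 in aPD-1+CD8, 4.54 in aPD-1 and 11.9 in IgG. Nckap1l was 1 of 8 haematopoietic Rac regulators listed, and 0 of the 8 passed at an adjusted p of 0.05 in any comparison by the authors' DESeq2 test. The next highest were Dock8 with a mean of 39.0 and Arhgdib with a mean of 24.5. The source of the Nckap1l signal was not tested.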
